A study of Drosophila melanogaster with 2 samples.

Results

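Deep intronic summits are sites of Odd-skipped (Odd) binding that lay inside a gene but in none of its exons and more than 5000 bp from every annotated transcription start site (TSS). They were found by position alone: the summit of each peak that was kept by the irreproducible discovery rate (IDR) procedure, in the deposited list of these peaks, was placed on the Ensembl annotation of the dm6 genome. Of the 4291 peaks of that list, 489 met the rule, a share of 11.4% (exact 95% binomial interval 10.5% to 12.4%). When peaks that overlapped were counted once, 460 remained.

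ChIP-seq was done on a Drosophila melanogaster line with a transgene of odd fused at the C terminus to green fluorescent protein (GFP), so that an antibody to GFP pulled down the fusion with the DNA it bound. Chromatin came from whole embryos of both sexes aged 0 to 16 h and was sheared by sonication to 200 to 800 bp. There was 1 group, with 2 biological replicates, and no second genotype, treatment or age, so no comparison between conditions was possible. All embryos carried the same tagged transgene, the collection mixed many stages and all tissues of the embryo, and a site bound weakly in many cells cannot be told apart from one bound strongly in a few. The value of a peak is the signal score given by the authors' peak caller, and read depth is unknown because no reads or coverage were used.

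Odd is a zinc-finger protein, named for a pair-rule gene, a class that divides the early embryo into segments. It acts mainly as a repressor, and later in development it marks parts of the gut, the excretory system, the leg joints and cells near the heart. Large introns of fly genes are known to hold enhancers, stretches of DNA that bind many factors and set where and when a gene is transcribed. An enhancer in an intron often acts on the gene that surrounds it, but it can also act on a neighbour, so a host gene is named here for position and not as a target.

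The sequences around 5 of the strongest members are shown first, as examples of the base composition and of the short words described later. They were picked so that the marked words can be seen: of the 10 strongest members with a stretch read in this way, 4 held a marked word and 6 did not. Each stretch covers 151 bases centred on the summit, is given 5′ to 3′ on the plus strand of the NCBI Release 6 genome (dm6), and has in capitals the forkhead word TGTTTAC or any of 4 words of 6 letters (ACACTG, the word ACAGTG, the word CTGTGC and the word GTGCAC), read on either strand. The stretch in simj, at chr3L:10682903-10683053, held none of these words, and its summit window had a G+C content of 21.9%. The stretches in Gug (chr3L:8458242-8458392) and tara (chr3R:16236902-16237052) held 6-letter words, and those in S (chr2L:1072311-1072461) and gukh (chr3R:18998078-18998228) held the forkhead word.
simj: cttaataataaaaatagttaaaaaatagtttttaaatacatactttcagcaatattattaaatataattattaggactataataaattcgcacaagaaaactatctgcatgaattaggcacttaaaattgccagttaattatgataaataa
Gug: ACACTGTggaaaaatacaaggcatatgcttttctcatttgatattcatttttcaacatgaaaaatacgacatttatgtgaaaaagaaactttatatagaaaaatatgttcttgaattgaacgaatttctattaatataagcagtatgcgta
tara: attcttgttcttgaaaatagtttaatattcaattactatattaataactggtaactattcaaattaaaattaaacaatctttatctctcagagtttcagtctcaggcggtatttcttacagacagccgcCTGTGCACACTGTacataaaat
S: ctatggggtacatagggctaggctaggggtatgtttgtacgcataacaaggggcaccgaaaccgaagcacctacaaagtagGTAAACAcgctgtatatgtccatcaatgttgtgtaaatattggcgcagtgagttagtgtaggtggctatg
gukh: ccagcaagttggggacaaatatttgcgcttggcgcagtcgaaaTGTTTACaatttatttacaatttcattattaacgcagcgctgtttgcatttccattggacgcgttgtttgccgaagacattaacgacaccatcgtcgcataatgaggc

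A second set shows the longer word CACTGTGC, which 21 of the 489 members held within 100 bp of the summit. The word was put together from the overlapping 6-letter words after their values were seen. Each site is shown 5′ to 3′ on the strand that reads CACTGTGC, with the word in capitals and 11 bases to each side. The sites belong to members in simj (chr3L:10683187-10683216, plus strand), NetA (chrX:14612562-14612591, plus), heca (chr3R:30296067-30296096, minus), Tsp66E (chr3L:8920978-8921007, minus), dnc (chrX:3205996-3206025, minus), Eip74EF (chr3L:17611601-17611630, plus) and cdi (chr3R:19073096-19073125, minus).
simj site: cgaatgcgaccCACTGTGCactgatagcgg
NetA site: aagctcggcacCACTGTGCcgcttacggtg
heca site: aattcttgcacCACTGTGCctttgctaccg
Tsp66E site: gagagcaatacCACTGTGCactgaaaccaa
dnc site: gtaccttgaacCACTGTGCacaagctcgaa
Eip74EF site: ggcacagcaccCACTGTGCggccagcgagt
cdi site: agtgttttgacCACTGTGCaccgcgggcag

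These 7 sites share the base C just before the word, and they were picked from the members that hold it. Among all 21 members with the word, 17 had a site preceded by C, 3 one preceded by A, 2 one preceded by G and 0 one preceded by T, with 1 member holding 2 sites that differed in this base. Over the whole genome, 45.2% of the 5401 sites of CACTGTGC were preceded by C.

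Deep intronic sequence made up 28.3 Mb, or 21.1% of the genome, so the members lay at 17.3 summits per Mb. Summits within 500 bp of a TSS, called promoter summits here, numbered 1960 and lay at 108 per Mb. Near intronic summits, which lie in introns 501 to 5000 bp from a TSS, numbered 1188 at 48.4 per Mb. Distal intergenic summits, outside genes and more than 5000 bp from a TSS, numbered 142 at 7.06 per Mb, and the whole genome gave 32.1 per Mb. The members were thus sparser than the promoter and near intronic summits and than the genome at large, and denser than the distal intergenic summits. With repeat-masked bases left out, the order was the same, at 16.9, 98.0, 46.9 and 8.05 summits per unmasked Mb for deep intronic, promoter, near intronic and distal intergenic sequence.

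Members were found on all the large chromosome arms. Arm 2L held 95 members at 23.0 per Mb of deep intronic sequence, 3L held 106 at 19.7, X held 90 at 16.8, 3R held 128 at 15.5 and 2R held 70 at 14.3. The small chromosome 4, which is mostly heterochromatin, held 0 members in 0.259 Mb of deep intronic sequence.

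The distance from a member to the nearest TSS had a median of 8288 bp and reached 47192 bp in hth. The limit of 5000 bp cut through a continuous range: the member closest to it, in Gug, lay 5007 bp from a TSS with a signal of 495, and the intronic peak just outside, in dnt, lay 5000 bp away with a signal of 154. Exons were also far away, with a median distance of 4742 bp, and 19 members lay within 500 bp of one. For 192 members (39.3%) the nearest TSS belonged to a gene that does not span the summit, so the host and the gene with the nearest start differ in these cases. The nearest other peak of the list had a median distance of 5004 bp for members, against 3978 bp for promoter, 2507.5 bp for near intronic and 6509 bp for distal intergenic summits.

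Of the 489 members, 271 (55.4%, 95% interval 50.9% to 59.9%) lay in the first intron of at least 1 transcript that spans them. First introns of this kind held 31.2% of deep intronic bases. Peaks of the pooled relaxed list that also met the rule of position but ranked below the IDR list offer a background from the same libraries, and 2432 of 4949 of them (49.1%) lay in such an intron. The share among members was higher (Fisher's exact test, two-sided, p = 0.00907), in a comparison added after the shares were seen. Peaks that lie in the same intron are not independent in this test, and its p-value does not allow for that.

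Members were less frequent among the strongest peaks. Of the 859 strongest peaks of the IDR list, 57 were deep intronic (6.64%, 95% interval 5.06% to 8.51%), against 95 of the next 858 (11.1%) and between 12.8% and 13.3% in the 3 weaker groups of 858. In the pooled relaxed list of 30000 peaks, which holds background by design, 18.1% of summits met the rule, and among its 4291 lowest-ranked peaks 21.1% did, the same percentage as the share of deep intronic bases in the genome. The signal of members ran from 144 to 1707 with a median of 206, against medians of 236 for promoter, 215 for near intronic and 195 for distal intergenic summits.

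**Figure D1:**
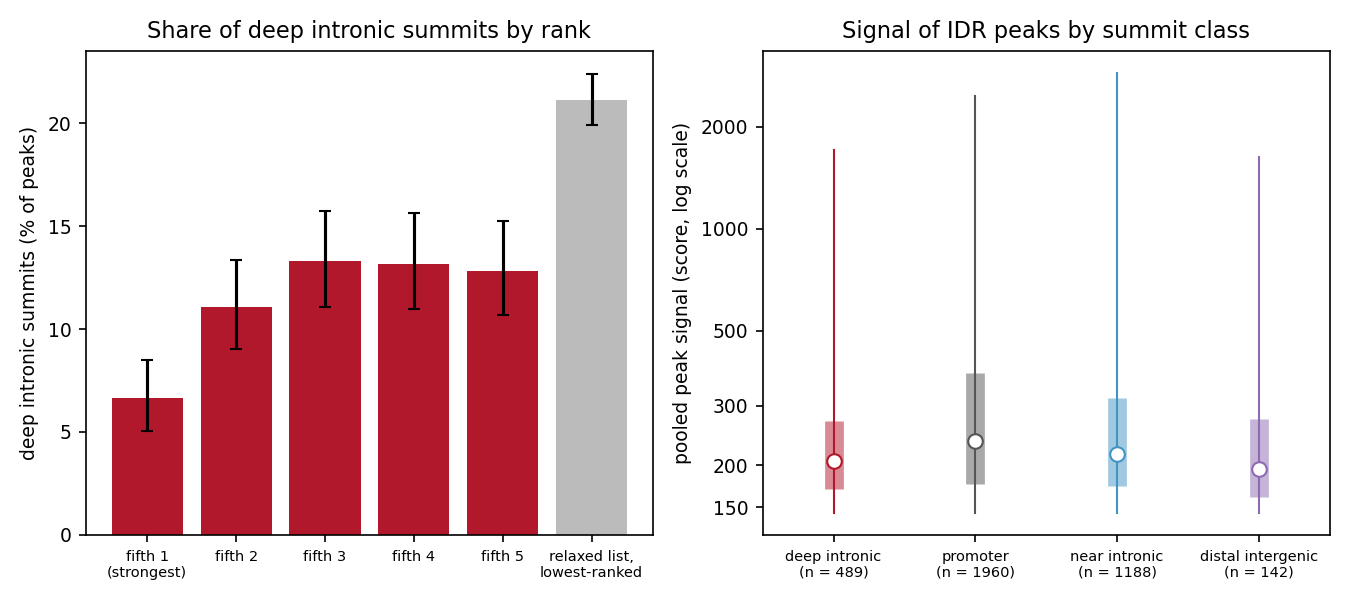
Left, the share of peaks with a deep intronic summit (percent, with exact 95% intervals) in 5 equal groups of the IDR list from strongest to weakest and in the 4291 weakest peaks of the relaxed list; the share is 6.64% in the strongest group and 21.1% in the lowest-ranked relaxed peaks. Right, pooled peak signal (score, log axis) by class, where lines give the range, boxes the quartiles and circles the median; the median is 206 for deep intronic and 236 for promoter summits.

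The share of peaks above the median signal of the list was 41.9% for members (205 of 489), 55.1% for promoter, 48.2% for near intronic and 35.2% for distal intergenic summits. Members differed from promoter summits by Fisher's exact test with Benjamini-Hochberg adjustment over the 3 classes (two-sided, adjusted p = 6.8e-07) and from near intronic summits (adjusted p = 0.031). By the same exact test, the difference from near intronic summits did not pass the threshold with replicate 1 alone, where it was -2.86 in place of -6.31 percentage points (adjusted p = 0.305), nor when overlapping peaks were counted once (adjusted p = 0.096). The difference from distal intergenic summits did not pass the threshold (exact test, adjusted p = 0.174). Peaks, not embryos, are the units of these tests, so the p-values describe these lists.

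The members were looked for in the list of each replicate. A summit was covered by some relaxed peak of replicate 1 in all 489 members and by one of replicate 2 in 483. Against the 4291 strongest peaks of each replicate, 341 members (69.7%) were covered in both, 76 in replicate 1 and not in replicate 2, 58 in replicate 2 and not in replicate 1, and 14 in neither. Over the whole IDR list, 72.2% of summits were covered in both, a share near that of the members. The share was 73.8% for promoter, 72.7% for near intronic and 61.3% for distal intergenic summits, and none of the differences from the members passed the threshold (Fisher's exact test, adjusted p = 0.103, 0.232 and 0.103). With a stricter list of the strongest peaks in each replicate, the share of members covered in both differed from that of promoter summits by -12.4 percentage points (Fisher's exact test, adjusted p = 1.4e-06) and from that of near intronic summits by -6.60 percentage points (adjusted p = 0.0179).

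**Figure D2:**
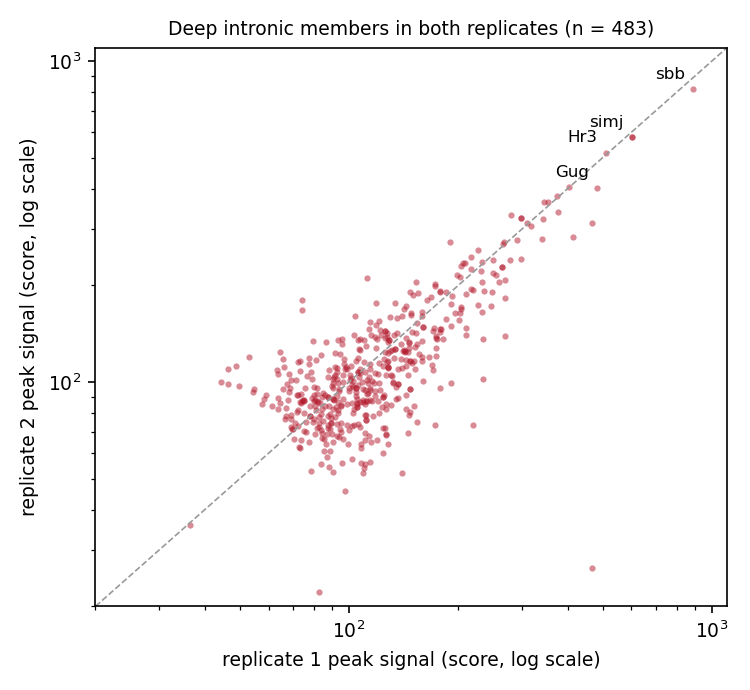
Signal of the strongest covering peak in replicate 1 (x) and replicate 2 (y), both scores on log axes, for the 483 members covered in both, with a dashed line of equal scores. Scores from the separate lists are not on one scale; the strongest members, sbb, simj, Hr3 and Gug, are at the top in both replicates, and the lone point at the lower right is a weak second peak in tara.

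The strongest members ranked high in both replicates. They were picked by pooled signal from a list made with both, so high ranks in each are no separate support. Over the 483 members covered in both, the Spearman rank correlation of the 2 scores was 0.636, given as a description. Scores ranged from 36.5 to 887 in replicate 1 with a median of 111, and from 22.2 to 816 in replicate 2 with a median of 102. The weak second peak in tara that stands apart in the plot of both replicates was covered by a peak of 468 in replicate 1, the same peak that covers its strong neighbour 207 bp away, and by one of 26.4 in replicate 2. Where peaks overlap in this way, 1 replicate peak can stand for more than 1 member.

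The strongest member lay in the long first intron of sbb (scribbler, also called brakeless), a zinc-finger co-repressor. Its peak, at chr2R:18336843-18337422, had a pooled signal of 1707 and ranked 10 in the IDR list, with 887 in replicate 1 (rank 10) and 816 in replicate 2 (rank 9), and its summit lay 20126 bp from the start of sbb. The next lay in simj, which encodes a subunit of the NuRD chromatin-remodelling complex, with a signal of 1174, a rank of 54, and scores of 603 and 579 in the replicates. The third, at chr2R:10219877-10220258, lay in an intron shared by the spans of CG46321, CG12912 and Hr3, an orphan nuclear receptor of the ecdysone response. Its signal was 1024, with 509 and 518 in the replicates, and the nearest TSS was that of Hr3, 7894 bp away.

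The member in Gug, the fly Atrophin and a co-repressor, followed with a signal of 879 and with 484 and 403 in the replicates. A pair of members in tara, a nuclear protein of the trithorax group, had signals of 800 and 769. The first of these scored 404 in replicate 1 and 405 in replicate 2, and the second 468 and 313. In S (Star), which acts in the export of Egfr ligands, the signal was 743, with 373 and 381 in the replicates. In gukh, a scaffold protein of synapses, it was 720, with 353 and 365. In the list of each replicate these 8 peaks ranked between 9 and 266, so none of them rested on 1 library. The IDR list was made from these same replicates, so the ranks are a description and not separate support.

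The rest of the 25 strongest members had signals from 490 to 713. Their hosts included JIL-1, a histone H3 kinase (713), Hr4, another nuclear receptor of the ecdysone response (666 and 540), and crp, a basic helix-loop-helix factor (624 and 573). They also included Raf, the kinase below Ras in receptor tyrosine kinase signalling (620), and Su(Tpl), an elongation factor of RNA polymerase II (536). The summit in Su(Tpl) also lay in the span of Mi-2. Further hosts were fra, a Netrin receptor (498), and apt, a transcription factor of the trachea and heart (490). A second peak in simj had a signal of 694, a second in sbb 537 and a second in Gug 495. The hosts CG32486 (691), MESR3 (614), Lrch (612) and CG14073 (525) complete the coding genes. The 1 non-coding host among the 25 was lncRNA:bxd (620), a transcript of the bithorax complex, with 308 in replicate 1 and 313 in replicate 2. Over all members, 10 (2.04%) had a non-coding host.

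The 489 members fell in 284 host genes, each member being given to the shortest protein-coding span around it. Of these hosts, 174 held 1 member and 89 held 2 or 3. The remaining 21 held 4 or more and together 108 members (22.1%). The gene sbb led with 9 members in 35.6 kb of deep intronic sequence, spread over 23.3 kb, with signals from 169 to 1707. The gene Snoo, the fly Ski/Sno protein of Dpp and Activin signalling, held 8 in 75.3 kb, with signals from 201 to 442. No peak of the list lay within 500 bp of a start of Snoo.

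In simj, 6 members lay within 5.34 kb, or 39.1 per 100 kb of its deep intronic sequence, and 6 in tara lay at 37.2 per 100 kb. The homeobox gene hth, a partner of Hox proteins, held 6 over 76.9 kb, or 5.96 per 100 kb, with a highest signal of 295. The genes rdx, a BTB adaptor that targets Ci for degradation, and cic, a repressor controlled by Egfr and Torso signalling, held 6 each, with highest signals of 446 and 239. Raf, crp and Hr4 held 5 each, at 29.8, 32.7 and 16.2 per 100 kb. Eip75B and kirre, which held 5 as well, at 14.5 and 2.21 per 100 kb, came after them by summed signal and are not among the 10. Over all protein-coding genes with deep intronic sequence the value was 1.74 per 100 kb. The 10 genes were chosen for their number of members, so their densities are a description.

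**Figure D3:**
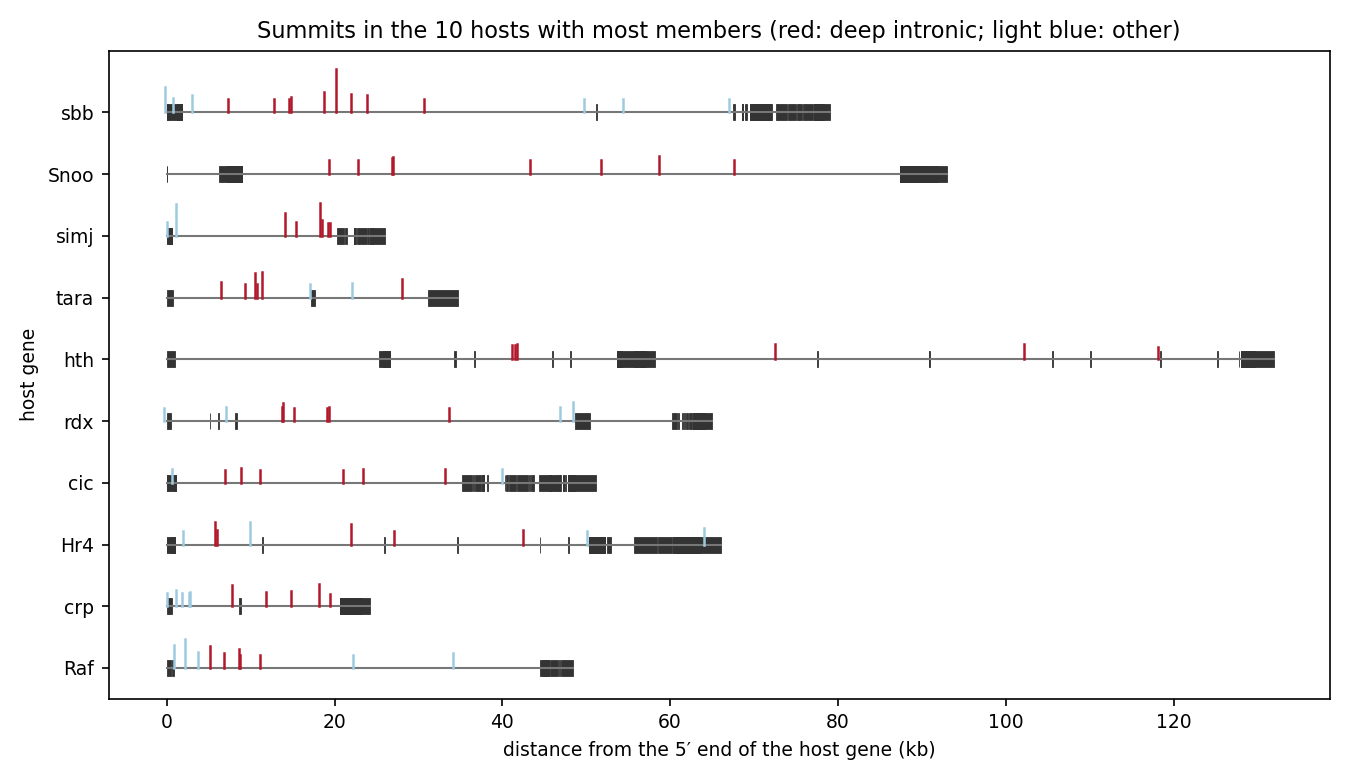
Maps of the 10 host genes with the most members, drawn from the 5′ end of the gene (kb), with exons as dark boxes, deep intronic summits in red and other summits of the IDR list in light blue; the height of a line grows with pooled signal. The tallest line is the summit in sbb with a signal of 1707, and the 6 members in simj fall within 5.34 kb.

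Of 1760 protein-coding genes with any deep intronic sequence, 289 (16.4%) had at least 1 member in the span. This share followed length. When the genes were ordered by the length of their deep intronic sequence and put in 4 groups of 440, members were found in 0 genes of the shortest group, for which the exact 95% interval reaches 0.835%, and in 46 (10.5%), 97 (22.0%) and 146 (33.2%) of the others. The median length was 0.387 kb in the shortest group and 31.5 kb in the longest. In the longest group 294 genes had no member, and whether length alone gives such a number was not tested.

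The genes with a member more often had a peak of the list within 500 bp of one of their own starts, 129 of 289 (44.6%, 95% interval 38.8% to 50.6%) against 325 of 1471 without a member (22.1%, upper limit 24.3%). Within the groups by length the shares were 39.1% against 23.6%, 43.3% against 21.9% and 47.3% against 19.7%, from the shorter genes to the longer. These shares were not tested. In the other 160 hosts, with members but no peak at a start, sites of Odd in the gene were thus recorded away from its promoters.

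Among the genes with long introns and no member, Myo81F, Pzl, lovit and CG17684 had the most deep intronic sequence, at 1905, 690, 417 and 378 kb. Parts of such genes lie in repeat-rich DNA near centromeres in flies, where reads are hard to place. Of all deep intronic sequence, 74.2% was not masked as repeat, and 72.4% of members had their summit in unmasked sequence. The part of mappability in the absence of members was not tested.

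Members were counted by lists of genes of known roles, in which a gene entered if it had deep intronic sequence. The lists are partial, so each count covers the listed genes and not a whole pathway or class. In the Hedgehog, Wingless and Dpp pathways, which pattern segments and appendages, 12 of 17 genes held a member, or 6.39 members per 100 kb, against 16.4% of all 1760 genes and 1.74 per 100 kb. Among ligands these were dpp (signal 318), hh and the Dpp antagonist sog. Among receptors and co-receptors they were fz (374), fz2, arr, dally and dlp, and inside the cell Dad (470), nkd, shn and sgg. Dad, the inhibitory Smad of Dpp signalling, held 3 members in 7.60 kb of deep intronic sequence. With a distance over 10000 bp the list held 4 members in 2 genes, fewer than the axon guidance (13 members), zinc-finger (10), homeobox (8) and nuclear receptor (6) lists. The strongest member in Dad had rank 552, against 632 by replicate 1 and 510 by replicate 2 alone.

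Of the nuclear receptors and other ecdysone response genes, 6 of 14 held members (5.95 per 100 kb): Hr3 (1024), Hr4 (666), Eip75B (470), Eip74EF, ftz-f1 and EcR. Hr4 and Eip75B held 5 each. Of the zinc-finger patterning factors, 6 of 13 did (6.11 per 100 kb), which were sbb, ush (418), disco-r (277), ab, elB and luna. The GATA co-factor ush held 4 members. Without replicate 1 this list fell from 17 members in 6 genes to 11 in 4, while all members went from 489 to 444. In the Hippo, JAK/STAT and JNK pathways 4 of 9 genes held members (5.64 per 100 kb), led by wts (234), Stat92E (230) and msn (224), all of modest signal. The listed genes of the Notch and Egfr pathways had 5 of 12 (3.88 per 100 kb). The receptor N (455), the ligand vn (433) and the repressor aop (282) were first among these. The hosts S (743), Raf (620) and cic (239), described above, were not in this list.

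The listed homeobox factors had members in 5 of 30 genes (16.7%, against 16.4% of all genes; 2.96 per 100 kb), and 6 of their 14 members lay in hth. The others lay in Antp, which had 4 members and a highest signal of 410, inv (167), pb and ct. The hosts cad (312), NK7.1 (261) and Lim1 (222) were not in this list. The listed BTB and chromatin factors had 5 of 15 (2.53 per 100 kb), with bab1 (425), bab2 (378) and Psc (282) the strongest of the list. The hosts simj (1174), tara (800), JIL-1 (713) and rdx (446), described above, were not in it. Regulators of muscle, heart and blood had 4 of 14 (3.05 per 100 kb), led by how (289), ths (271) and tey (192). Cytoskeleton and small GTPase regulators had 4 of 22 (18.2%) at 1.78 members per 100 kb, near the 16.4% and 1.74 of all genes, led by Abl (227), GEFmeso (212) and RhoGAP71E (177).

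The lists of genes with roles in neurons differed from each other. Axon guidance and adhesion genes have long introns, with a median of 27.4 kb of deep intronic sequence against 6.0 kb for all genes. Of these, 11 of 40 (27.5%) held a member, a higher share than the 16.4% of all genes, at 1.41 members per 100 kb, near the 1.74 of all genes. Their lower-ranked peaks lay at 18.4 per 100 kb against 17.6 for all genes, and fra (498), caps (398) and NetA (325) held the strongest members. Among ion channel and synapse genes 1 of 29 held a member, the potassium channel Shal (272), in 710 kb of deep intronic sequence, or 0.141 members per 100 kb. The listed growth, stress and circadian genes had 0 of 9 in 102 kb, with an exact 95% interval that reaches 33.6%. That count of 0 did not hold with either replicate left out, where 2 of these genes held a member, nor with a distance over 2000 bp, where 7 did. It also depends on the genes listed: the hosts cwo (356), REPTOR (302) and Myc (159) were not in this list.

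Density also differed between lists among the peaks that ranked below the IDR list. Lower-ranked deep intronic peaks of the pooled relaxed list lay at 57.5 per 100 kb in the Hedgehog, Wingless and Dpp genes, 5.21 per 100 kb in ion channel and synapse genes and 17.6 per 100 kb in all genes. Of the relaxed peaks in a list's deep intronic sequence, the share that were members was 14.5% for nuclear receptors (95% interval 8.96% to 21.7%), 10.0% for the Hedgehog, Wingless and Dpp genes (6.13% to 15.2%) and 9.0% over all genes. The listed growth, stress and circadian genes had 53.8 lower-ranked peaks per 100 kb and 0 members. The lists are described by these counts and were not tested, and their genes were chosen with earlier results of the same libraries known.

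**Figure D4:**
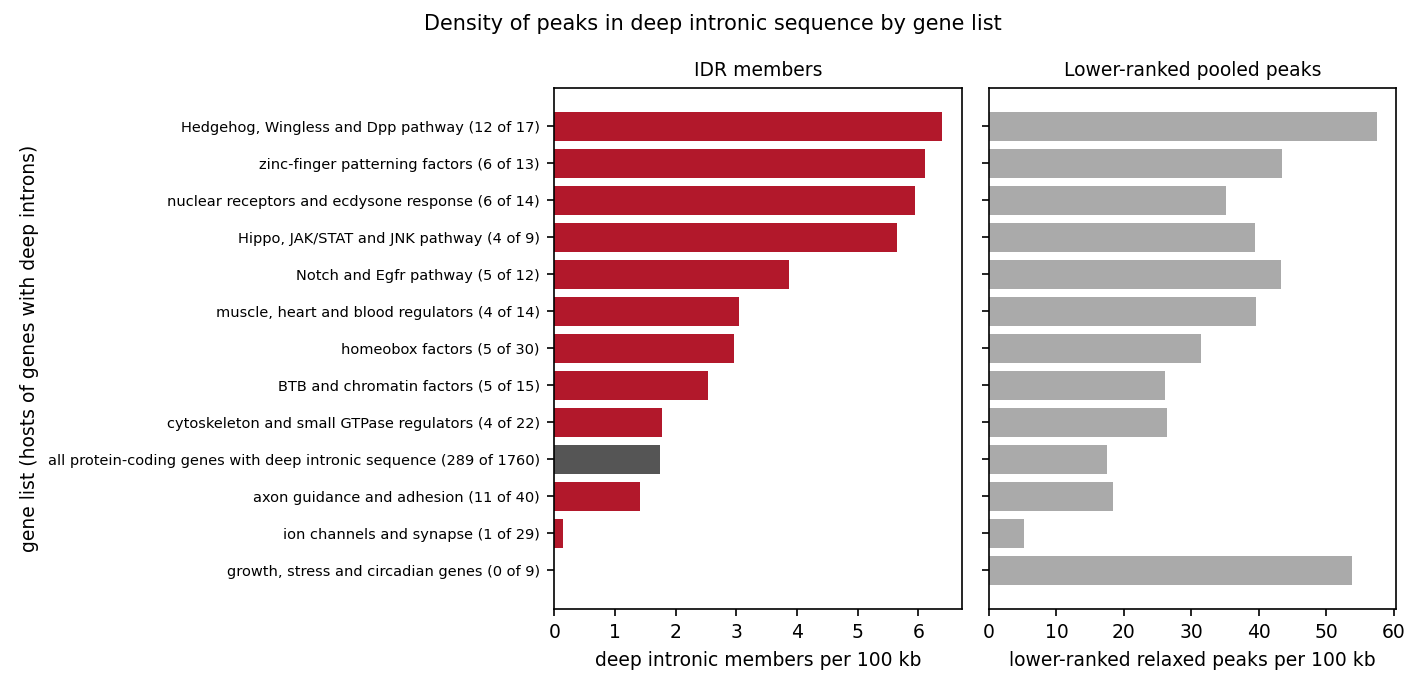
Members per 100 kb of deep intronic sequence (left) and lower-ranked peaks of the pooled relaxed list per 100 kb (right) for 12 gene lists and for all protein-coding genes (dark bar, left), with the number of genes that hold a member out of those with deep intronic sequence. The Hedgehog, Wingless and Dpp genes are at the top with 6.39 members per 100 kb against 1.74 for all genes (with a distance over 10000 bp they hold 4 members), and ion channel and synapse genes have 0.141.

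The DNA under the summits was on the whole richer in A and T than the DNA beside it, with a wide range among members. Of the members printed above, simj, Gug and tara had G+C contents of 21.9%, 29.9% and 27.9% in the summit window, while gukh and S had 40.8% and 45.8%. Within 100 bp of the summit the median G+C content of members was 36.3%, against 39.8% in windows of the same length centred 1000 bp to the left. The dip was narrow: mean G+C was 34.9% in the 50 bp just right of the summit and 43.6% at 250 to 300 bp, above the 39.6% found near 1000 bp. The other classes also had a lower median at the summit than in the left flank, of unequal depth: 37.3% against 43.3% for promoter, 35.8% against 40.5% for near intronic and 37.8% against 40.3% for distal intergenic summits.

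Short words were compared between each summit window of 201 bp and its left flank. Of all possible 6-letter words, read on both strands, 20 (0.962%) were more frequent at the summit and 15 (0.721%) in the flank, by an exact two-sided sign test with Benjamini-Hochberg adjustment over all of them. The most different was TAAATA, present in 235 members (48.1%) and in 140 left flanks (28.6%), with an adjusted p of 1.3e-06. The share was 30.3% in the right flanks, 28.6% in 136445 windows of deep intronic sequence, and 32.6% at the lower-ranked deep intronic peaks. Then came AAATAT, in 54.6% of members against 37.2% of left flanks (exact test, adjusted p = 9.1e-05), and CAAATA, in 37.6% against 22.7% (adjusted p = 0.00026).

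Composition followed the G+C profile. Of the 20 words more frequent at summits, 10 held no G or C, 6 held 1 and 4 held 2 or more, while all 15 words more frequent in the flank held 2 or more. Among the latter, GGGGAA was in 5.11% of summit windows and 14.1% of left flanks (exact test, adjusted p = 0.0006), and GCCAAA in 12.1% and 23.1% (adjusted p = 0.00284). Against the right flank, 12 of the 20 higher and 5 of the 15 lower words passed the threshold. Without replicate 1, 13 of the 20 and 5 of the 15 did, and without replicate 2, 13 and 3. The words that did not pass kept their direction in these comparisons. How far base composition alone gives these words was not tested.

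The 4 words with 2 or more G or C that were more frequent at the summit go against the trend of composition. ACACTG was in 15.1% of members and 6.95% of left flanks (exact test, adjusted p = 0.0126), GTGCAC in 9.61% and 3.68% (0.0202), CTGTGC in 15.5% and 7.77% (0.0234) and ACAGTG in 14.9% and 7.98% (0.0408). Within 50 bp of the summit none of the 4 passed the threshold, and with replicate 1 alone ACACTG and CTGTGC did not (exact test, adjusted p = 0.0754 and 0.0527). They overlap one another, as the stretch of tara printed above shows, and are not independent.

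The longer word CACTGTGC, whose sites are printed above, was in 4.29% of members (95% interval 2.68% to 6.49%), in 0.818% of each flank and in 0.754% of deep intronic windows. It was in 1.60% of the lower-ranked deep intronic peaks. The other classes held it at like shares, 3.83% of promoter, 4.12% of near intronic and 3.52% of distal intergenic summits. By distance it was most frequent 50 to 100 bp left of the summit, in 11 members, and was found in 4 and 2 members in the 50 bp to either side of the summit itself. No factor is named for it here, and as a word chosen after the values were seen it was not tested.

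**Figure D5:**
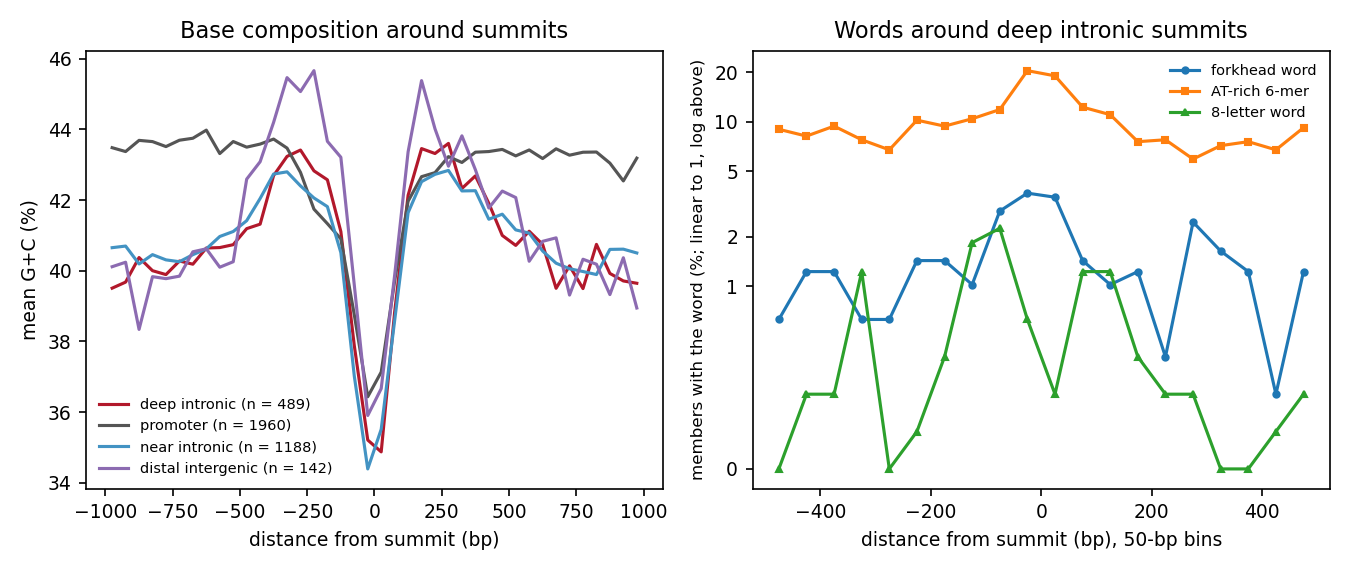
Left, mean G+C content (percent) in 50-bp bins around the summits of each class; members fall to 34.9% at the summit and reach 43.6% at 250 to 300 bp. Right, the percentage of the 489 members that hold the forkhead word TGTTTAC, the 6-letter word TAAATA (AT-rich) or the word CACTGTGC (8-letter) in 50-bp bins, on an axis that is linear to 1 and logarithmic above; TAAATA reaches 20.4% beside the summit.

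Of 32 words listed for known factors, 1 (3.12%) was called against the left flank, at the threshold of 0.05 on the adjusted p. It was the forkhead word TGTTTAC, the core that forkhead proteins bind. It was in 52 members (10.6%, 95% interval 8.04% to 13.7%) and in 20 left flanks (4.09%), with an adjusted p of 0.00325. Against the right flank, where the word was in 34 windows (6.95%), the difference did not pass the threshold (exact test, adjusted p = 0.504). The word was in 3.89% of deep intronic windows, 6.12% of lower-ranked deep intronic peaks and 7.91% of promoter summits. Near intronic summits held it in 10.4%, distal intergenic summits in 6.34% and the whole IDR list in 8.79%. The share of members was thus like that of near intronic summits and not particular to deep introns.

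The word listed for Odd itself, the short consensus ACAGTAGC, was in 6 members (1.23%, 95% interval 0.452% to 2.65%), in 2 left flanks and in 1 right flank, and was not called (exact test, adjusted p = 0.71). It was in 0.386% of deep intronic windows, 0.663% of promoter and 0.704% of distal intergenic summits. Such counts are too few to show a difference. The word CAGGTA of Zelda, a factor that opens chromatin in the early embryo, was in 4.29% of members against 1.64% of left and 3.68% of right flanks (exact test, adjusted p = 0.193). The word TGATAAG of GATA factors was in 7.16% against 4.91% and 2.45% (exact test, adjusted p = 0.538). GAGAG, bound by GAGA factor, was in 22.7% against 25.6% and 19.0% (exact test, adjusted p = 0.709).

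Compared with promoter summits by Fisher's exact test, adjusted over all listed words and both classes, members held 3 words less often. The word of M1BP, a factor of housekeeping promoters, was in 0 members, with an exact 95% interval that reaches 0.752%, and in 34 promoter summits (1.73%), with an adjusted p of 0.0169. The word TATCGATA of DREF, also a factor of housekeeping promoters, was in 2 members (0.409%) and in 3.93% of promoter summits (exact test, adjusted p = 0.00035). The E-box CAGCTG was in 5.93% of members and 11.7% of promoter summits (exact test, adjusted p = 0.0033). Within 50 bp of the summit no word was called. Against distal intergenic summits 0 of 32 words were called, 0 had an unadjusted p under 0.05, and the smaller number of those summits, 142, limits what could be seen.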

How the data were processed

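The signal score of a peak and the offset of its summit, another number of the same record, were used as the authors deposited them, from 4 lists on dm6. These were a relaxed list for either replicate, a relaxed list for the pool, and the peaks kept by IDR. The text records that the submitters deposited say that alignments and a control gave the relaxed lists, and that these 3 gave the IDR list. Its 4291 summits were the 4291 strongest of the pooled list. The aligner, peak caller, read filters and cut-off of IDR: not given in the sources used here. Neither the dm3 lists nor the control library were analysed here. A score depends on depth, so it served to rank peaks within a list. Depth is unknown, and the exact 95% (Clopper-Pearson) intervals cover counting of peaks or genes, not the spread between embryos.

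Summits (1-based) were placed on the Ensembl release 115 annotation with transposable elements left out, and sequence came from the NCBI Release 6 genome. Windows of 201 bp at the summit and centred 1000 bp to each side were searched on both strands. Fisher's exact test and the exact sign test, two-sided, were run with scipy 1.17.1 under Python 3.11.15 and adjusted by Benjamini-Hochberg at 0.05. Before this, the classes were checked on random positions of known class, and the sign test on real flanks with planted 6-letter words. Fisher's exact test was not checked in this way. The lower-ranked background is the pooled peaks ranked below the IDR list that meet the rule of position; it, the first-intron test and the word CACTGTGC were added after the data were seen. Masked bases are those in lower case in the genome file.

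The members, words and gene lists were chosen with earlier results of these data known. All genes of the 12 lists were found in the annotation; in each list, genes with no deep intronic sequence were left out of its counts. Genes named are the hosts of the 25 strongest members, the 10 hosts with most members, the 3 genes (or fewer) per list whose summits were strongest, and, chosen after their values were seen, the other list members with a summit, the long genes without one and the hosts at the sites of CACTGTGC. Words named are those with the smallest adjusted p and, chosen after their values were seen, those of Odd, Zelda, GATA factors and GAGA factor. The listed words are short consensus words recalled as background.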

Additional observations from a re-analysis of the deposited data

How the results depend on the processing

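The number of members, 489, became 981 with a distance over 2000 bp, 186 over 10000 bp and 205 in the stronger part of the IDR list, and the number of host genes, 284, became 517, 113 and 151. With transposable elements counted as genes, an alternative chosen after seeing the data, there were 437 members. With the stricter lists of each replicate, the share of members covered in both differed from that of promoter summits by -12.4 and from that of near intronic summits by -6.60 percentage points, both past the threshold. Coverage by these lists also depends on signal, and signal and agreement between replicates were not told apart. The share above the median signal, against near intronic summits, differed by -6.83 percentage points over 10000 bp and -4.60 with overlapping peaks counted once, neither past the threshold, and by -7.52 to -2.86 with 1 replicate left out. Against distal intergenic summits the difference became -2.88 for the upper quartile of signal, reversed from 6.71, neither past the threshold. The number of listed words called against the flank, 1, was 3 with a window of 50 bp, 2 with a flank at 500 bp, 2 over 2000 bp, 0 over 10000 bp, 0 in the stronger part of the list and 3 to 3 with 1 replicate left out. Of 6-letter words, 97 were higher over 2000 bp and 2 over 10000 bp, and 75 and 0 were lower, with 1 lower in a window of 50 bp and 7 to 11 lower with 1 replicate left out. Against promoter summits 0 listed words were called in a window of 50 bp, 6 over 2000 bp and 0 over 10000 bp, and 1 was called against distal intergenic summits over 2000 bp. The distances change the number of members, and the windows of 50 bp hold fewer bases; the cause of the other changes was not tested. The difference from promoter summits in the share above the median signal and that in the first-intron share kept their direction and passed the threshold under the alternatives run for them. Each replicate alone called 23 higher 6-letter words, 13 of them among the 20 reported. No paired comparison of conditions was possible because there is 1 group. The sign tests of words pair each summit with its own flank.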

Other observations

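Of the 6-letter words more frequent at deep intronic summits, some had shares near those at near intronic summits, which lie closer to a start, and some did not. TAAATA was in 48.1% of deep intronic and 48.7% of near intronic summits, CAAATA in 37.6% and 34.4%, GTGCAC in 9.61% and 6.90%, and ACAGTG in 14.9% and 18.9%. At promoter summits TAAATA was in 44.9% and CAAATA in 27.4%. These shares were not tested against each other.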
